A study of Mus musculus with 7 samples.

Results

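The genes described here build the contractile apparatus of skeletal muscle and couple it to its nerve: 38 genes for proteins of the thin filament, the thick filament, the Z-disc and titin, calcium handling and the acetylcholine receptor, with 4 further muscle genes. They were found by name among the non-control probes of 7 microarrays, which gave 52 probes for the 38 genes, of 55681 probes for 36373 genes in all. Of the 38 genes, 11 had more than 1 probe.

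In a striated muscle fibre, thin filaments of actin slide past thick filaments of myosin, and the 2 sets are held in register by the Z-disc, the M-band and the spring protein titin. Troponin and tropomyosin on the thin filament keep myosin off actin until calcium binds. Acetylcholine released by the motor nerve opens its receptor on the fibre, the membrane depolarises, and a voltage sensor opens the ryanodine receptor, through which calcium leaves its store. In the limb bud, muscle forms from precursor cells that migrate in from the somites, while the ectoderm over the bud and its ridge are epithelia and the connective tissue arises from the limb mesenchyme.

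Total RNA came from the forelimb of C57/Bl6 mice at embryonic day 11.5, and 75 ng was labelled with Cy3 for each array. The apical ectodermal ridge (AER), the thickened epithelial rim of the bud, was microdissected for 3 arrays. Surface ectoderm of the posterior limb was the control on 4 arrays. Each replicate pooled tissue of 2 to 3 mice, the labels name no allele, agent or cell sort for either group, and each array holds whatever cells the dissection carried along.

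The tissue labels were set against marker lists. Of 8 AER markers, 7 could be tested and 6 were higher in AER arrays, with a median log2 difference of 4.13. Of 12 epithelial markers, 10 were higher in AER arrays. Their summed level, in units of the array's 75th percentile, was 166 to 188 on AER arrays, against 73.8 to 104 on ectoderm arrays, so the epithelial genes were read in both tissues. In the other direction, 8 of 10 limb mesenchyme markers and 4 of 6 tendon markers were past the test, all lower in AER arrays. Summed mesenchyme levels were 183 to 214 on AER arrays, against 345 to 551 on ectoderm arrays, and summed tendon levels were 2.92 to 3.51 on AER arrays, against 67.9 to 78.8 on ectoderm arrays. Across genes, arrays correlated at r of at least 0.980 within AER, at least 0.985 within ectoderm and 0.946 to 0.968 between the groups. Ectoderm replicates 2 and 4 share a number in their file names and were counted as 2 samples. Whether they hold 2 pools or 1 RNA is not stated in the sources used here. Averaging them left 30 of the 38 genes lower in AER arrays, as many as without averaging.

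**Figure D1:**
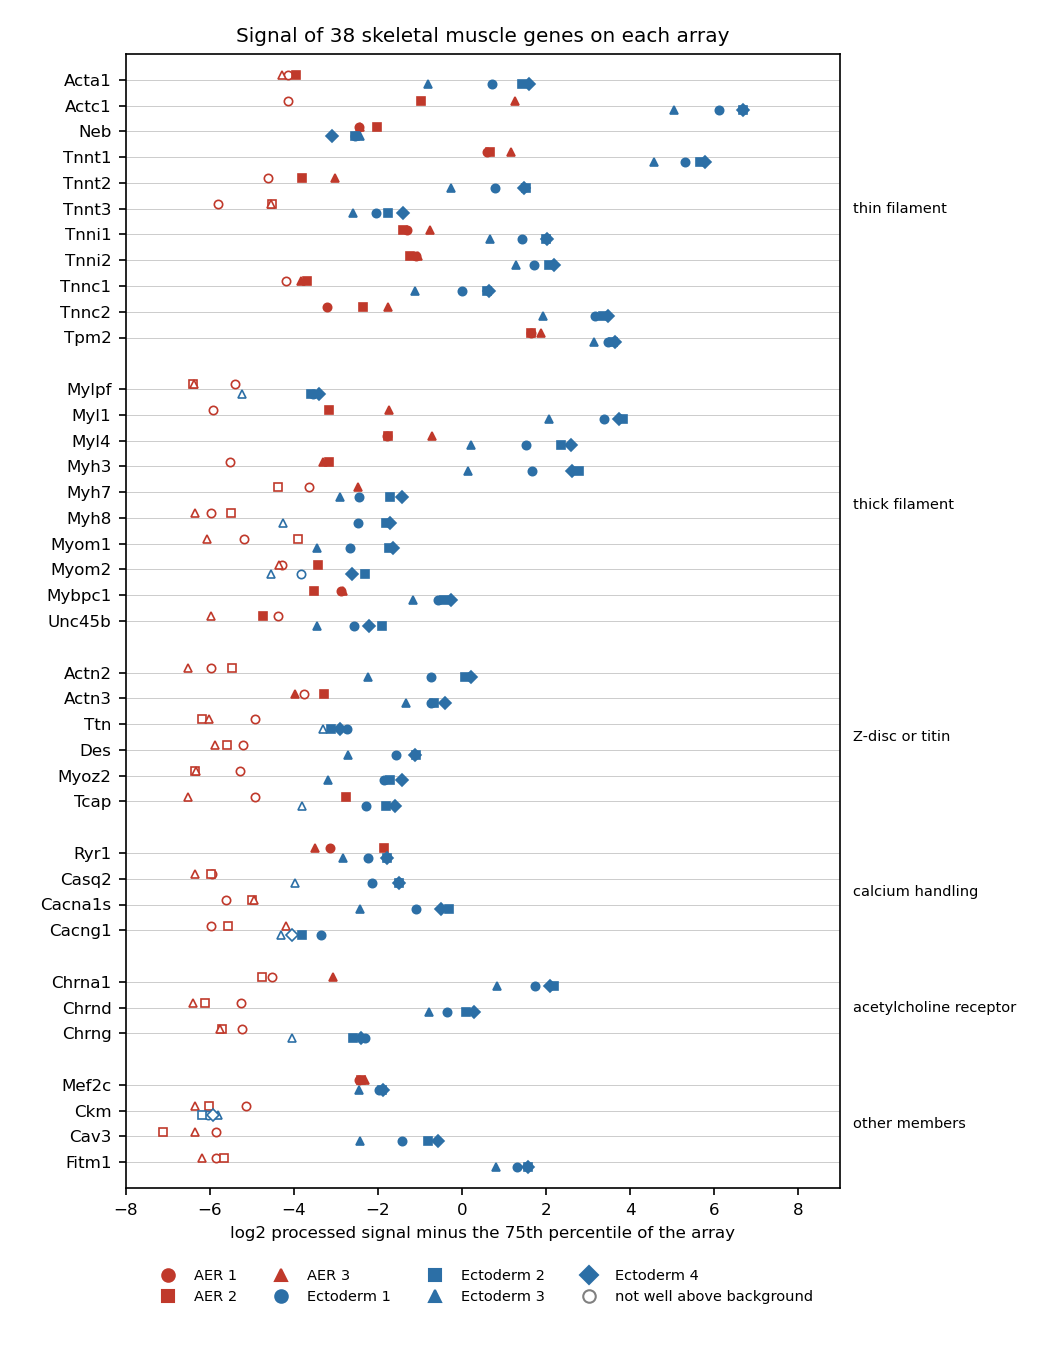
Level of each of the 38 genes on each array, as the log2 processed signal minus the 75th percentile of that array (horizontal axis). Red marks are the 3 AER arrays and blue marks the 4 ectoderm arrays, with open marks for signals not well above background. Most genes show the red marks to the left of all blue ones, and within the blue marks the triangle of ectoderm replicate 3 lies farthest left for most genes.

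The comparison of AER with posterior ectoderm found most of the muscle genes lower in AER arrays. Of the 38 genes, 30 were lower in AER arrays and 0 were higher (0 also at an unadjusted p under 0.05), at an adjusted p under 0.05 (limma's moderated test with Benjamini-Hochberg adjustment over 20826 genes, 3 AER and 4 ectoderm arrays). Among all genes tested, 8.65% were lower and 7.03% were higher. The 38 genes were chosen with earlier results of these data known, so these shares describe them and are no independent test. Another 6 genes were tested and did not pass, namely Neb, Myh7, Myom2, Tcap, Ryr1 and Mef2c. Cacng1 and Ckm were well above background on fewer than 3 arrays and were not tested. Of the 36 genes tested, 14 passed that filter through ectoderm arrays alone, so those had to differ in level, and the same fit over all 36373 genes with no filter also gave 30 lower and 0 higher, where 3.47% of all genes were lower and 3.10% higher. The median log2 difference of the 36 genes was -3.24, against -0.08 over all genes tested. With the AER levels of genes at background on all AER arrays raised to the dimmest signal called above background, that median was -2.79.

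In RNA from whole tissue, fewer muscle cells and less muscle RNA per cell cannot be told apart. The myogenic regulators, genes of muscle precursors and of the muscle program, mostly moved in the same direction. Of 16, 10 were lower in AER arrays and 0 higher, with Myf5 and Myf6 at background on every array. At an unadjusted p under 0.05 in limma's test 1 was higher, and the largest tested log2 difference was 1.10. All AER arrays lay below all ectoderm arrays for 11 of the 16 and above them for 2. Myod1, the master regulator of muscle, was 137-fold lower, Cdh15, a cadherin of muscle precursors, 36.2-fold, Pax3, which marks the migrating precursors, 15.4-fold, and Meox2, a homeobox gene of limb muscle and mesenchyme, 93.1-fold. The mean log2 level of the list was -2.71 to -1.93 on AER arrays, against 0.37 to 0.82 on ectoderm arrays. Its summed level, 66.9 to 69.4 on AER arrays, against 137 to 168 on ectoderm arrays, rests in AER mostly on Eya1, which did not pass (0.24; adjusted p = 0.297). The part of the cells carried along with the ectoderm in these results was not tested. Heart and smooth muscle share several of these genes, so their markers were read too. Of 8 cardiac markers, Nppb, Myl7 and Nkx2-5 were at background on all arrays, and the summed level of the list was 0.431 to 0.814 on AER arrays, against 0.849 to 2.06 on ectoderm arrays. Sln, a regulator of the calcium pump in atrium and in skeletal muscle, was the 1 cardiac marker that was lower in AER arrays (-2.76; adjusted p = 0.00209). All AER arrays lay below all ectoderm arrays for 1 of the 8 cardiac markers. They lay above them for 2, which were not among the 3 tested. Of 8 smooth muscle markers, Myh11, Actg2, Lmod1 and Myocd were at background on all arrays, the summed level was 7.34 to 16.3 on AER arrays, against 17.6 to 43.3 on ectoderm arrays, and Acta2 was lower in AER arrays (-3.87; adjusted p = 0.000220).

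Signals below are processed signals in scanner units, not scaled between arrays; the array's 75th percentile was 395, 662 and 451 units on AER replicates 1 to 3 and 474, 520, 296 and 407 units on ectoderm replicates 1 to 4. Log2 differences are AER minus ectoderm after scaling to that percentile, and folds are given as ectoderm over AER. A gene at background on all AER arrays has a fold of "at least" the stated size. There each AER array takes its dimmest signal called above background, or the gene's own signal where that is higher. This is no strict limit, since on AER replicate 2 Unc45b was above background at 20.9 units and Myom1 was not at 37.3. With normexp background correction the difference was smaller than the stated size for every lower muscle gene given such a fold. The log2 difference was then -3.66 for Fitm1, -2.71 for Chrnd and -0.73 for Mylpf. The "at least" folds are therefore bounds under the main processing alone. Levels of different probes are not comparable with each other.

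Thin filament genes were lower in AER arrays for 10 of 11, with a median log2 difference of -3.93. Actc1 encodes the cardiac alpha-actin that embryonic skeletal muscle also uses. It read 19.2, 285 and 939.7 units on AER arrays, against 28325, 45616, 8527 and 35910.5 units on ectoderm arrays. The AER arrays spread widely, AER replicate 1 was at background, and the groups were far apart. Actc1 was 172-fold lower in AER arrays (95% CI 31.6 to 941; adjusted p = 0.0020), and the fold was 64.0 without AER replicate 1 and 417 without AER replicate 3. Acta1, the alpha-actin of mature skeletal muscle, read 19.2, 36.2 and 20.2 units on AER arrays, against 675, 1200.4, 147 and 1042 units on ectoderm arrays. Of the AER arrays, replicate 2 alone was above background, and ectoderm replicate 3 was the lowest of its group without reaching the AER range. Acta1 was 29.1-fold lower in AER arrays (95% CI 12.9 to 66.0; adjusted p = 0.000393).

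The troponin complex has 3 kinds of subunit, each made in slow and fast forms, and all 7 troponin genes on the list were lower in AER arrays. Tnnc2, the fast calcium-binding subunit, read 36.5, 111 and 116 units on AER arrays, against 3650.3, 4531, 972 and 3819 units on ectoderm arrays. It was above background on every array and 42.8-fold lower in AER arrays (95% CI 21.3 to 86.0; adjusted p = 9.77e-05). Tnnt1, the slow tropomyosin-binding subunit, read 515, 898 and 882 units on AER arrays, against 16189, 22495, 6121 and 18982 units on ectoderm arrays. Its AER signal lay well above background and above the 75th percentile of each AER array, and it was still 22.9-fold lower there (95% CI 14.3 to 36.8; adjusted p = 3.81e-05). Tnnt2, the form named for the heart and also made in embryonic skeletal muscle, was 25.9-fold lower, and Tnnt3, the fast form, was at least 5.72-fold lower with all AER arrays at background. The inhibitory subunits Tnni1 (slow) and Tnni2 (fast) were 6.43-fold and 7.72-fold lower, and Tnnc1, the slow and cardiac calcium-binding subunit, was 15.3-fold lower. Tpm2, beta-tropomyosin, is also made outside striated muscle. It read 1064, 1758 and 1442 units on AER arrays, against 4519, 5350.0, 2260.4 and 4288 units on ectoderm arrays, and it was 3.33-fold lower in AER arrays (95% CI 2.55 to 4.35; adjusted p = 0.000242).

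Neb, the giant nebulin that runs along the thin filament, was the 1 thin filament gene that did not pass by the probe that stands for it here, with a log2 difference of 0.35 (adjusted p = 0.278) by its brightest probe. That probe read 62.1, 138 and 73.5 units on AER arrays, against 69.8, 76.3, 48.0 and 40.2 units on ectoderm arrays, and the groups overlapped. It lies at chr2:51980409-51980468 (mm9) on the plus strand and was designed on a full-length cDNA clone, while the other 2 Neb probes, designed on the RefSeq transcript, lie on the minus strand. Whether it reads Neb mRNA was not tested, and each count that takes Neb as not lower rests on this probe. The RefSeq probe at chr2:52097549-52097608 read 16.2, 31.1 and 29.5 units on AER arrays, against 179, 154, 66.0 and 119 units on ectoderm arrays, with no overlap. By that probe, a choice made after its values were seen, Neb was lower in AER arrays (-2.55; adjusted p = 0.000150). The remaining Neb probe was at background on all arrays. Of the 52 probes, 41 belong to genes whose strand is given with the RefSeq promoters, which Neb is not, and all 41 lay on that strand.

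Thick filament genes were lower in AER arrays for 8 of 10, with a median log2 difference of -2.60. Myl1, the essential light chain of fast myosin, read 5.57, 62.5 and 117 units on AER arrays, against 4235, 6283, 1071 and 4634 units on ectoderm arrays. AER replicate 1 was at background and the groups did not overlap. Myl1 was 117-fold lower in AER arrays (95% CI 29.0 to 471; adjusted p = 0.00109), and the fold was 52.3 without AER replicate 1 and 223 without AER replicate 3. Myh3 encodes the embryonic myosin heavy chain, the motor of the first fibres. It read 7.38, 62.2 and 39.9 units on AER arrays, against 1304, 3048, 281 and 2123 units on ectoderm arrays. Again AER replicate 1 was at background and ectoderm replicate 3 was the lowest of its group. Myh3 was 55.9-fold lower in AER arrays (95% CI 17.1 to 182; adjusted p = 0.00112), and 32.9-fold lower without AER replicate 1.

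Myh8, the perinatal heavy chain, read 5.44, 12.5 and 4.76 units on AER arrays, all at background, against 73.3, 126, 13.4 and 105 units on ectoderm arrays, of which replicate 3 was at background. Myh8 was at least 4.46-fold lower in AER arrays (adjusted p = 0.0046). Myh7, the slow heavy chain shared with the heart, read 27.4, 26.9 and 70.9 units on AER arrays, against 74.7, 135, 34.3 and 127 units on ectoderm arrays. AER replicate 3 was above ectoderm replicate 3 and close to ectoderm replicate 1 after scaling, and the log2 difference of -1.37 did not pass (adjusted p = 0.0958). Without AER replicate 3 it was past the threshold (adjusted p = 0.0288). Myosin heavy chain genes are much alike in sequence, and whether a probe also caught RNA of a relative was not tested.

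Among the other light chains, Myl4, the embryonic and atrial essential chain, was 8.58-fold lower in AER arrays (95% CI 3.58 to 20.6; adjusted p = 0.00598). Mylpf, the regulatory light chain of fast fibres, read 8.11, 6.62 and 4.73 units on AER arrays, against 35.1, 36.7, 6.80 and 32.8 units on ectoderm arrays, with ectoderm replicate 3 at background. It was at least 1.72-fold lower in AER arrays (adjusted p = 0.0163), and the call was lost without AER replicate 2 (adjusted p = 0.0673) or without AER replicate 3 (adjusted p = 0.0566). Among proteins that order the thick filament, Mybpc1, the slow myosin-binding protein C, was 5.53-fold lower, Unc45b, a chaperone of myosin folding, was 5.68-fold lower, and Myom1, a myomesin of the M-band, was at least 3.73-fold lower. Myom2, the other myomesin, read 17.6, 52.6 and 19.2 units on AER arrays, against 28.6, 89.2, 11.0 and 56.3 units on ectoderm arrays, with overlap between the groups and no call (-0.69; adjusted p = 0.400).

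Z-disc and titin genes were lower in AER arrays for 5 of 6, with a median log2 difference of -3.41, and for 4 of the 5 every AER array was at background. With those 4 at their bound the median was -2.78. Actn2, the alpha-actinin that cross-links thin filaments in all sarcomeres, read 5.46, 12.7 and 4.27 units on AER arrays, against 246, 468, 54.4 and 402 units on ectoderm arrays. It was at least 16.6-fold lower in AER arrays (adjusted p = 0.000384). Des, the muscle intermediate filament that links Z-discs, read 9.23, 11.6 and 6.68 units on AER arrays, against 137, 208, 39.0 and 159.7 units on ectoderm arrays, and was at least 8.57-fold lower (adjusted p = 0.000268). Myoz2, a Z-disc protein that binds calcineurin, read 8.80, 6.85 and 4.88 units on AER arrays, against 113, 135, 28.1 and 129 units on ectoderm arrays, and was at least 6.40-fold lower (adjusted p = 0.000518). For these 3 genes all 4 ectoderm arrays were above background and ectoderm replicate 3 was the lowest of them. Ttn was at least 3.28-fold lower by its brightest probe, and Actn3, the alpha-actinin of fast fibres, was 7.39-fold lower with 2 of 3 AER arrays above background. Tcap, which caps titin at the Z-disc, read 11.3, 82.7 and 4.28 units on AER arrays, against 83.3, 126, 18.2 and 114 units on ectoderm arrays. AER replicate 2 was the 1 AER array above background and lay above ectoderm replicate 3. The log2 difference of -2.35 did not pass (adjusted p = 0.0973), and it was past the threshold without AER replicate 2 (adjusted p = 0.0235).

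**Figure D2:**
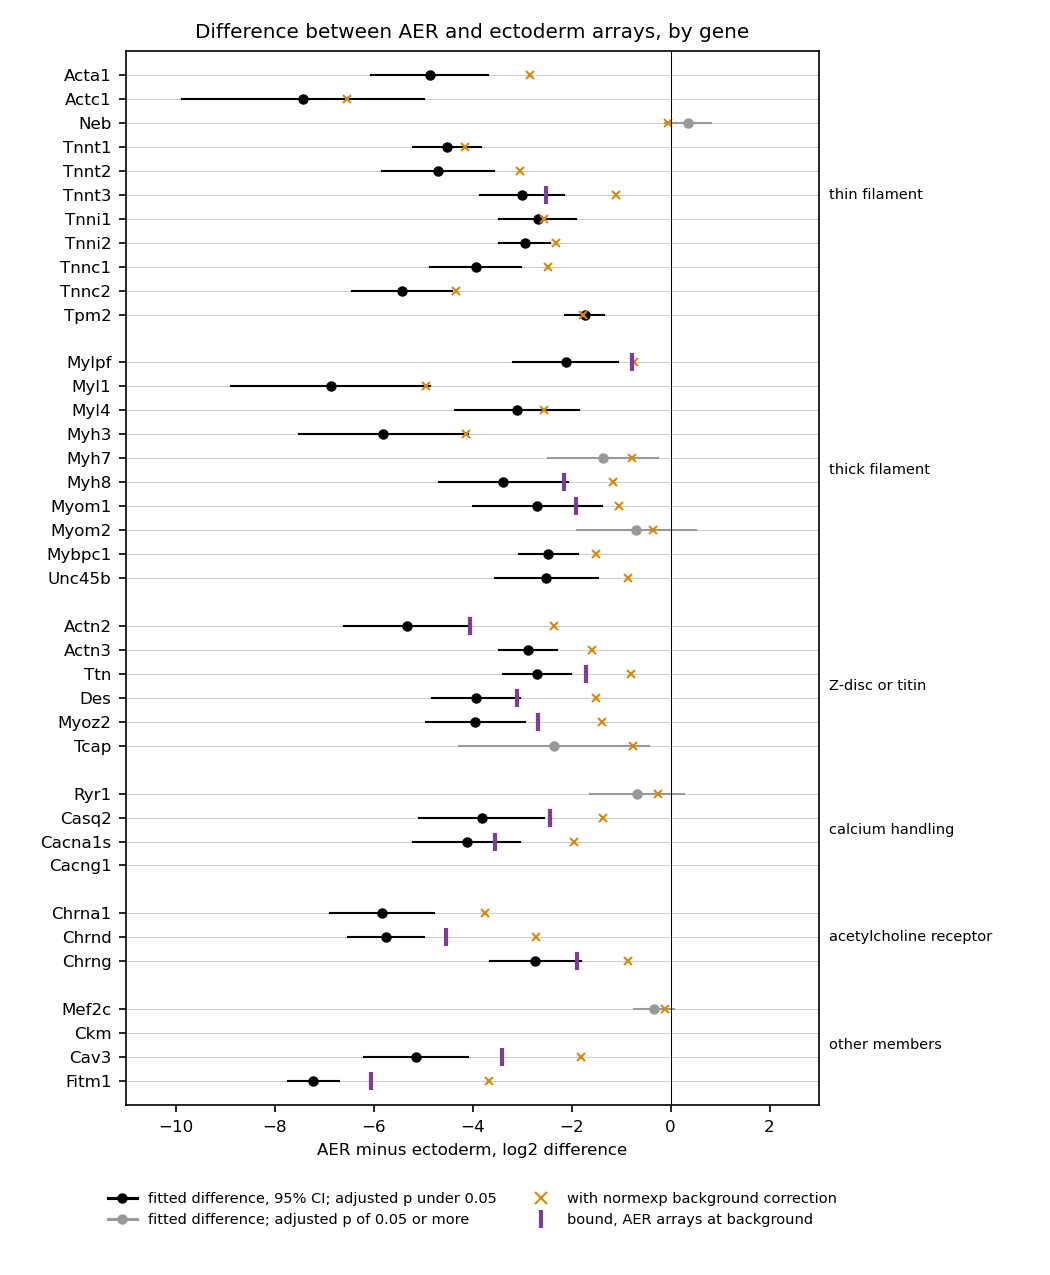
Fitted log2 difference, AER minus ectoderm, for each tested gene (horizontal axis) with its 95% confidence interval, in black where the adjusted p is under 0.05 and in grey otherwise. Orange crosses give the difference after normexp background correction and purple bars the bound where all AER arrays were at background. The black points lie between -7.43 (Actc1) and -1.74 (Tpm2), and the crosses lie nearer to 0 for most genes.

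Calcium handling genes were lower in AER arrays for 2 of the 3 that could be tested, of 4 in all. Cacna1s, the pore and voltage sensor of the muscle calcium channel, read 6.91, 17.5 and 12.6 units on AER arrays, against 190.3, 359, 48.0 and 246 units on ectoderm arrays. With all AER arrays at background, it was at least 11.7-fold lower there by its brightest probe (adjusted p = 0.000585). Casq2, a calcium store protein of heart and slow fibres, read 5.53, 8.93 and 4.76 units on AER arrays, against 91.9, 157, 16.2 and 122 units on ectoderm arrays, of which replicate 3 was at background. It was at least 5.42-fold lower in AER arrays (adjusted p = 0.00207). Ryr1, the calcium release channel that the voltage sensor opens, read 38.3, 156 and 34.8 units on AER arrays, against 87.2, 129.8, 36.0 and 101 units on ectoderm arrays, above background on all 7. After scaling, AER replicate 2 lay within the ectoderm range, and the log2 difference of -0.68 did not pass (95% CI of the fold 0.833 to 3.08; adjusted p = 0.296). Cacng1, an auxiliary subunit of the same channel as Cacna1s, read 5.43, 11.8 and 21.6 units on AER arrays, against 39.8, 31.4, 12.9 and 20.9 units on ectoderm arrays. Ectoderm replicates 1 and 2 were the arrays above background, so it was not tested, and the fit with no filter gave -1.36 (adjusted p = 0.123).

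The 3 acetylcholine receptor subunits were all lower in AER arrays, with a median log2 difference of -5.74. It was -4.54 once genes at background on all AER arrays were set to their bound. Chrna1, the subunit that binds acetylcholine, read 14.8, 20.7 and 47.1 units on AER arrays, against 1359, 2017, 458 and 1485 units on ectoderm arrays. AER replicate 3 was the 1 AER array above background, and the groups were far apart. Chrna1 was 56.8-fold lower in AER arrays (95% CI 27.5 to 117; adjusted p = 8.18e-05). Chrnd, the delta subunit, read 8.95, 8.13 and 4.61 units on AER arrays, all at background, against 319.7, 475, 149 and 424 units on ectoderm arrays. It was at least 23.2-fold lower in AER arrays (adjusted p = 2.73e-05). Chrng, the gamma subunit of the fetal receptor, read 9.02, 10.8 and 7.27 units on AER arrays, against 82.2, 73.6, 15.5 and 65.7 units on ectoderm arrays, with replicate 3 at background. It was at least 3.70-fold lower in AER arrays (adjusted p = 0.00228).

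Of the 4 remaining muscle genes, Fitm1 and Cav3 were lower in AER arrays. Fitm1, a protein of lipid droplet formation made in muscle, read 5.84, 11.2 and 5.42 units on AER arrays, against 1015, 1322, 453 and 1018 units on ectoderm arrays. All AER arrays were at background, the ectoderm arrays lay between 0.82 and 1.57 on the scaled log2 axis, and Fitm1 was at least 65.9-fold lower in AER arrays (adjusted p = 2.86e-06). Cav3, the caveolin of the muscle membrane, read 5.87, 4.07 and 4.76 units on AER arrays, against 151, 252, 47.7 and 234 units on ectoderm arrays, and was at least 10.7-fold lower (adjusted p = 0.000157). Mef2c, a transcription factor of muscle that other tissues also express, read 62.1, 106 and 79.3 units on AER arrays, against 105, 119, 47.0 and 93.3 units on ectoderm arrays. The groups overlapped and the log2 difference of -0.34 did not pass (adjusted p = 0.228). Ckm, the creatine kinase of mature muscle, read 4.76 to 9.66 units on AER arrays and 4.59 to 6.20 units on ectoderm arrays, at background on all 7.

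Far fewer of the genes were detected on AER arrays. Of the 38 genes, 10, 20 and 18 were above background on AER replicates 1 to 3, and 36, 37, 29 and 36 on ectoderm replicates 1 to 4. On no AER array were 16 of the genes above background, and on all AER arrays 10 were. For 6 genes (Actc1, Tnnt2, Tnnc1, Myl1, Myh3 and Actn3) AER replicates 2 and 3 were above background and AER replicate 1 was not. At background on all AER arrays and above it on all ectoderm arrays were 9 of the 38 genes, against 0.434% of all genes, and 13 of the 52 probes, against 0.404% of all probes. All AER arrays lay below all ectoderm arrays for 30 of the 38, against 11.3% of all genes.

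The ectoderm arrays differed among themselves in the muscle genes. Of the 29 genes above background on all 4 ectoderm arrays, 28 were lowest on replicate 3 after scaling, against 23.1% of the 18801 genes of the whole array above background there. Replicate 4 was the highest for 19 of the 29, against 20.7% of those 18801 genes. Replicate 2 was the highest for 9 of the 29 and replicate 3 for 1. The median difference between replicates 2 and 3 was 1.43 on the log2 scale for the muscle genes, a fold of 2.69, and -0.08 for all genes. It ran from -0.12 for Neb, by its plus-strand probe, to 2.65 for Myh3. On the same array the AER markers had a mean log2 level of -0.36, where the other ectoderm arrays had -2.28 to -1.81, and the myogenic regulators had 0.37, where the others had 0.77 to 0.82. The limb mesenchyme markers were lowest there too, with a summed level of 345, where the other ectoderm arrays had 462 to 551, and so were the smooth muscle markers, with 17.6 where the others had 30.0 to 43.3. The part of these markers in the muscle levels was not tested. Without ectoderm replicate 3 the count of lower genes was 30 of 38 and the median log2 difference was -3.76.

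**Figure D3:**
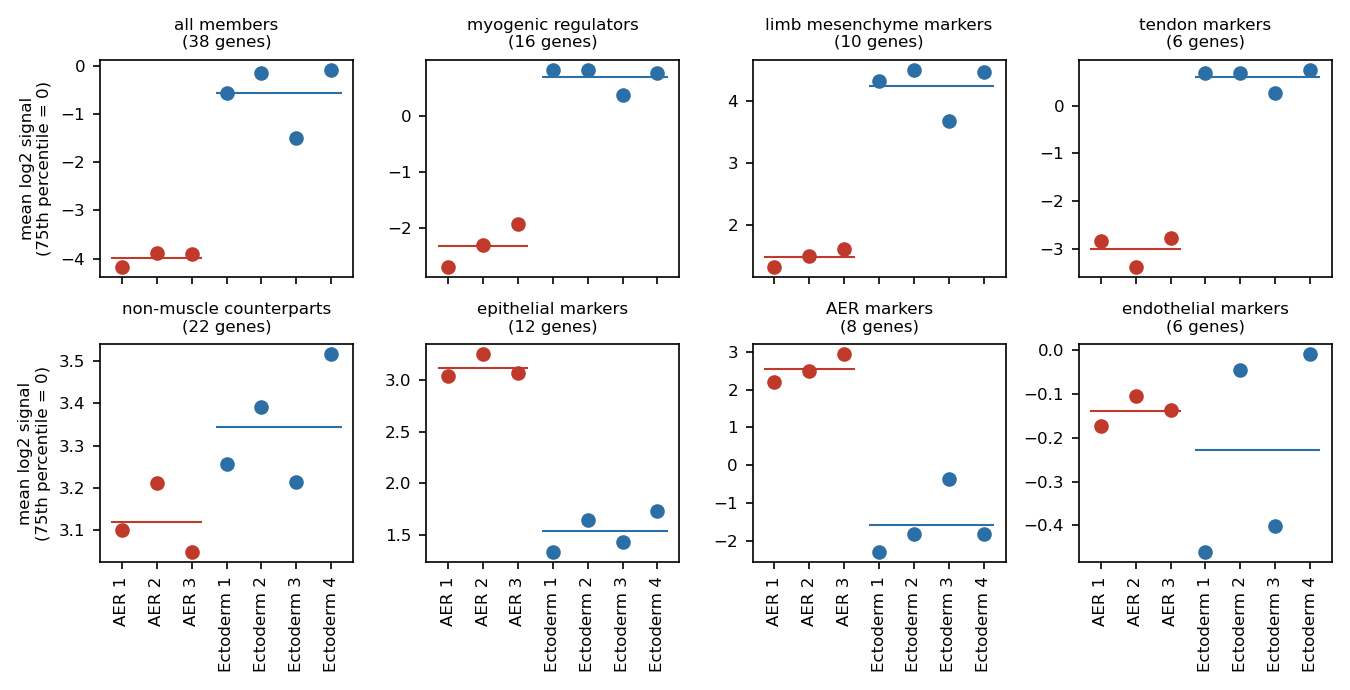
Mean log2 level of each gene list on each array (vertical axis, 0 is the 75th percentile of the array), with AER arrays in red at the left and ectoderm arrays in blue at the right of each panel, and a line at each group mean. The muscle genes average -4.18 to -3.88 on AER arrays, against -1.51 to -0.08 on ectoderm arrays, the lowest of these being ectoderm replicate 3. Vertical scales differ between panels.

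Probe by probe, 38 of the 52 probes were lower in AER arrays and 0 were higher, where 8.03% of the 28280 probes tested were lower and 6.98% higher. With no filter the counts were 38 and 0 again, where 2.72% of all probes were lower. The 2 Myh3 probes gave log2 differences of -5.80 and -5.72. The second probe of Myl1, on another transcript of the gene, and the second of Chrna1 were at background on all AER arrays and were at least 11.4-fold and at least 8.39-fold lower there. Probes of 1 gene disagreed elsewhere. A second Actn2 probe, on a cDNA clone, was at background on all arrays. The second Cacna1s probe, on the same transcript as the first, was above background on ectoderm replicates 2 and 4 alone. Its groups overlapped, and limma's fit with no filter gave -1.23 (adjusted p = 0.369). The second Myh8 probe read 123 units on ectoderm replicate 1 and was at background on the other 6 arrays. Of 4 Ttn probes, 2 were lower in AER arrays, at least 3.28-fold and at least 2.51-fold with all AER arrays at background, and 2 were above background on fewer than 3 arrays.

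**Figure D4:**
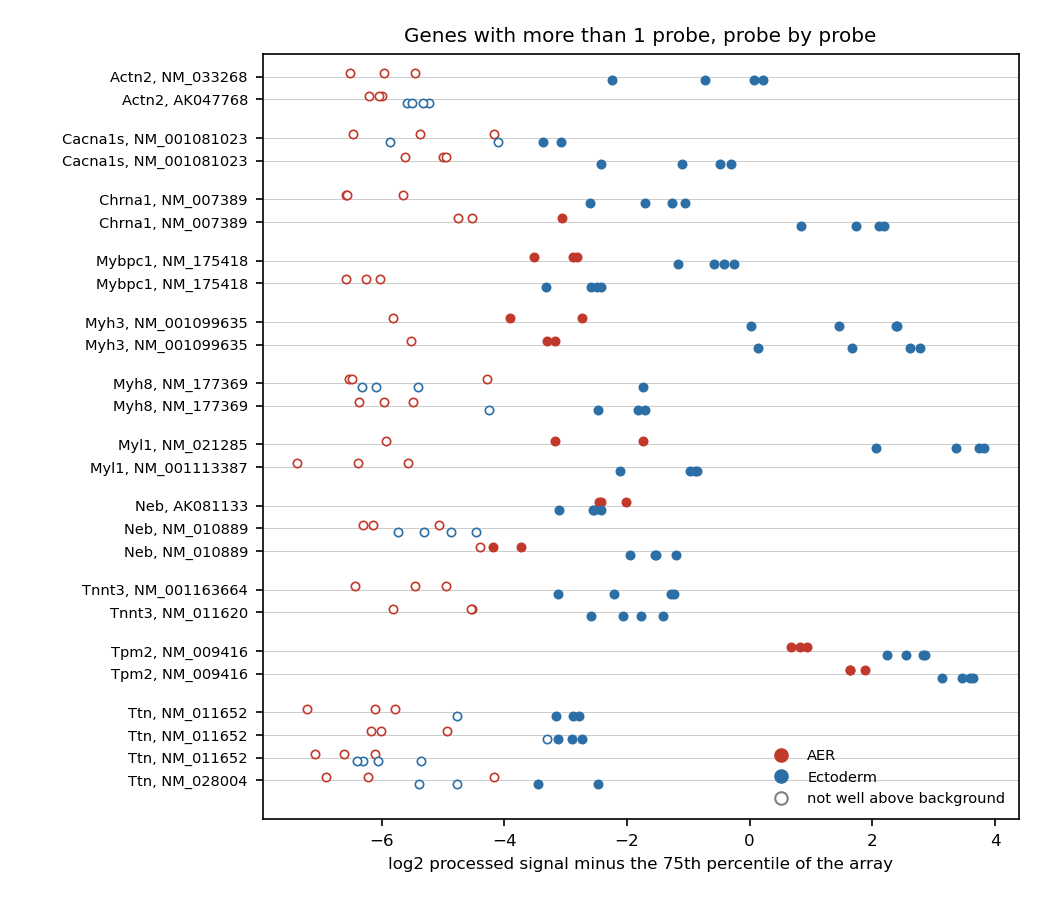
Log2 level of every probe of the 11 genes with more than 1 probe (horizontal axis, 0 is the 75th percentile of the array), with AER arrays in red and ectoderm arrays in blue, and open marks for signals not well above background. Each line is 1 probe, named by its gene and the transcript it was designed on. The cDNA-clone probe of Neb shows overlapping groups, and its brighter RefSeq probe shows the red marks to the left of the blue ones.

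Promoters are shown for 4 of the genes whose values are given above. The 250 bases before the start of transcription are those of RefSeq on GRCm38.p6, written 5′ to 3′ on the gene's strand. Capitals mark matches, on either strand, to the E-box form CAGCTG that MyoD-family factors bind, to the CArG box of serum response factor or to the TATAAA box. The genes Acta1 and Actc1 are shown for their CArG box, and Chrna1 and Cacna1s for that E-box. The Acta1 window lies at chr8:123894776-123895025 (minus strand), Actc1 at chr2:114052876-114053125 (minus strand), Chrna1 at chr2:73580339-73580588 (minus strand) and Cacna1s at chr1:136052561-136052810 (plus strand).
Acta1: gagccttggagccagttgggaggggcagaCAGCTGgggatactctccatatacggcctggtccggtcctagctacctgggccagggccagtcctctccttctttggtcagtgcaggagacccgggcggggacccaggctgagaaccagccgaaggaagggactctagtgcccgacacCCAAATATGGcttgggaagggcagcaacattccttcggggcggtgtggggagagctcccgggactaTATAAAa
Actc1: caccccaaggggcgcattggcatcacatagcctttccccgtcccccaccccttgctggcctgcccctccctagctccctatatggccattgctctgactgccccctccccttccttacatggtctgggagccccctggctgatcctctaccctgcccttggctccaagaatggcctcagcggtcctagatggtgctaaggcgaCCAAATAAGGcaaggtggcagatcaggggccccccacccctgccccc
Chrna1: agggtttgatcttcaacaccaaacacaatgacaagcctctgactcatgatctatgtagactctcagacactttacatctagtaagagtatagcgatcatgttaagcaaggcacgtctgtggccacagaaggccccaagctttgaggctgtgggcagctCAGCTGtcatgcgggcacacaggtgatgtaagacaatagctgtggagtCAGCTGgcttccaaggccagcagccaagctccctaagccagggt
Cacna1s: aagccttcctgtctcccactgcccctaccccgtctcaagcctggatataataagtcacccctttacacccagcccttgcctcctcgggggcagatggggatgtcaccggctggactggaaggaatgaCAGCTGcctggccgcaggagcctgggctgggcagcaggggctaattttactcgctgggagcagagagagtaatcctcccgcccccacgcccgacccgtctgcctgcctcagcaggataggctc

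Acta1 holds CAGCTG 221 bases before the start, a CArG box 73 bases before and TATAAA 7 bases before. Actc1 holds a CArG box 47 bases before the start. Chrna1 holds CAGCTG at 92 and at 44 bases before the start, and Cacna1s holds it at 123. Promoters were found for 30 of the 38 genes, 35 promoters in all. CAGCTG was in 16 of them (45.7%), against 13.0% of 32851 promoters of the same length. The general E-box CANNTG, which includes CAGCTG, was in 31 (88.6%), against 66.2%. The MEF2 site was in 4 (11.4%), against 2.92%, the CArG box in 3 (8.57%), against 1.47%, and TATAAA in 7 (20.0%), against 12.4%. The promoters include those of genes that did not pass (Mef2c, Myh7 and Ryr1) and of Ckm, which was not tested. These are matches of letters and not sites of binding, and their part in the levels was not tested.

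Further genes of the same machinery were read in 4 lists of 77 genes together. Of 52 tested, 27 were lower and 2 were higher in AER arrays, where 8.65% of all genes tested were lower and 7.03% higher. With no filter 26 were lower and 2 higher, where 3.47% of all genes were lower and 3.10% higher. The further sarcomere genes had 12 of 21 tested lower and 0 higher, of 36 in all. The smallest p values belonged to Klhl40, which stabilises thin filament proteins (at least 15.0-fold lower in AER arrays; adjusted p = 3.60e-05), to its relative Klhl41 (at least 10.3-fold), to the myomesin Myom3 (at least 5.20-fold) and to Csrp3, a Z-disc protein of muscle (at least 5.17-fold). The adult heavy chains Myh1, Myh2 and Myh4 and the extraocular chain Myh13 were among the 11 of these 36 genes at background on all 7 arrays. Further calcium and membrane excitation genes had 6 of 11 tested lower and 0 higher, of 17 in all. They were led by Hrc, a calcium-binding protein of the calcium store (-1.94), Atp2a1, the calcium pump of fast fibres (-2.01), Cacna2d1, a calcium channel subunit (-0.97), and Srl, sarcalumenin (-0.77). The count of 6 was 3 with no filter. It was 2 without AER replicate 1, 3 without AER replicate 3, 3 without ectoderm replicate 1, and 2 without ectoderm replicate 2 or 4.

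Muscle energy and membrane genes had 7 of 13 tested lower and 0 higher, of 15 in all. Tmem8c, the fusion protein now called Mymk, was lower in AER arrays (-3.35), as were Pgam2, the muscle phosphoglycerate mutase (-2.66), Sgca, alpha-sarcoglycan (-3.63), and Fabp3, a fatty acid carrier (-3.06). The further neuromuscular junction genes went both ways, with 2 lower and 2 higher of 7 tested. Musk, the receptor kinase that clusters acetylcholine receptors on the fibre, was at least 6.16-fold lower in AER arrays (adjusted p = 0.000323), and Colq, the collagen tail of acetylcholinesterase, was lower too (-1.59). Lrp4, which binds agrin and is also made in limb epithelium, was higher in AER arrays (1.65; adjusted p = 0.00666), and so was Agrn, agrin (0.93; adjusted p = 0.00918). Centring each array on the epithelial markers ended both higher calls, but it made 19620 of all 20826 genes lower.

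The non-muscle counterparts of these proteins (cytoskeletal actins, myosins, tropomyosins and their kin) had 3 lower and 1 higher of 21 tested, where 8.65% of all genes were lower and 7.03% higher, and a median log2 difference of -0.32. At an unadjusted p under 0.05 in limma's test, 7 of these counterparts were lower and 3 higher. By adjusted p, Tpm1 (-2.01), Cav1 (at least 4.47-fold) and Ckb (-1.32) were lower in AER arrays, and Myh14, a non-muscle heavy chain of epithelia, was higher (2.24). Of these 4 genes, Tpm1 is also made in striated muscle, so it is not a purely non-muscle gene. Of 6 endothelial and of 7 erythroid markers, 0 passed limma's test in either direction. At an unadjusted p under 0.05 there were 0 endothelial and 2 erythroid markers, the latter lower in AER arrays. When arrays were centred on the epithelial markers, which also moves the median of all genes to -1.67, 19 of the non-muscle counterparts, all 6 endothelial and all 7 erythroid markers were lower.

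**Figure D5:**
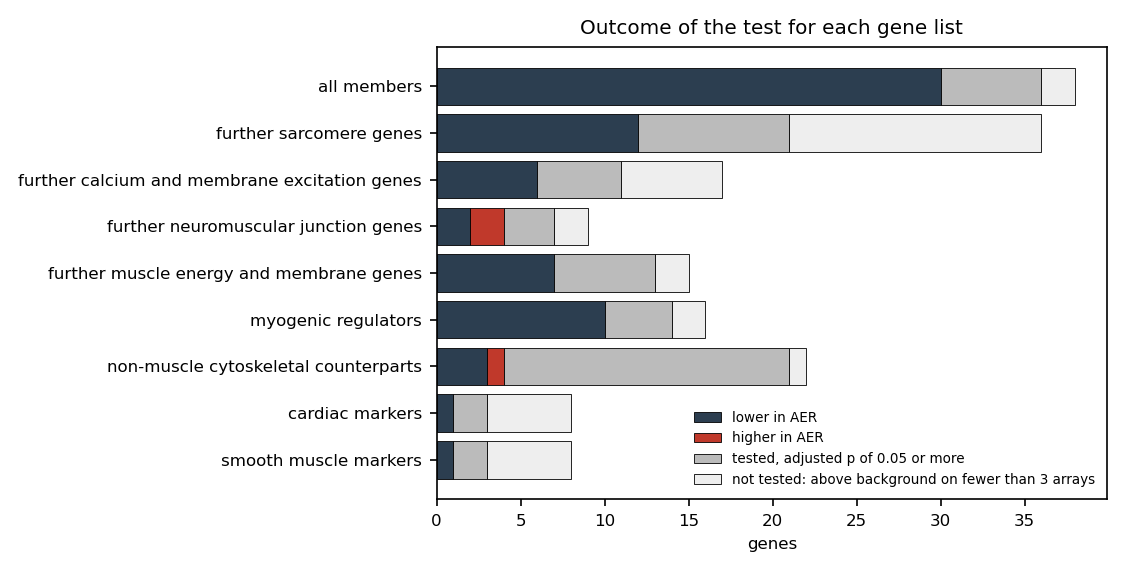
Number of genes (horizontal axis) of the muscle genes and of 8 related lists by outcome: lower in AER arrays, higher in AER arrays, tested with an adjusted p of 0.05 or more, and not tested. The muscle genes have 30 lower of 38, and the non-muscle counterparts 3 lower and 1 higher of 22.

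The folds depend on the background correction. Normexp background correction, whose offset of 50 draws dim signals together, made the fold over 1.5 times smaller for 26 of the 30 lower genes, for example to a log2 difference of -3.66 for Fitm1, -2.85 for Acta1 and -4.94 for Myl1. Each row of the slide has 1 array in 1 of the groups, whose spread is assumed to be that of the others. Within row 1 (AER replicate 1 and ectoderm replicates 1 to 3) 15 of the 30 calls were kept, with a median log2 difference of -3.14. Among the genes that lost the call there, Acta1 had -4.60 and Tnnc1 -4.01. Within row 2 (AER replicates 2 and 3 and ectoderm replicate 4) 32 genes were lower, with a median of -4.03.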

How the data were processed

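Total RNA was hybridised to 3 AER and 4 ectoderm 1-colour arrays on 1 slide with 1 scan time, per the file headers. The authors deposited scanner files whose processed signal is an intensity, background-subtracted and detrended by Agilent software and not scaled across arrays, per the file headers. Mean signal and local background are further intensity columns of the deposited files. Other columns of the deposited files flag spots well above background, uneven or outlying, per the file headers. The authors also deposited a log2 value table. Tested on the files, normexp with an offset of 50 and quantile normalization gave its values to within 9.67e-05. The submitters' processing notes name limma, without a version.

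Control, uneven and outlying spots were left out, and spots of 1 probe were averaged. Values are log2 processed signal minus the 75th percentile of all non-control probes of that array (55681 probes, of 59305 spots). Probes well above background on at least 3 of 7 arrays were kept (28280, or 50.8%). A gene is its probe with the highest mean, named by RefSeq accession (26300 probes), symbol (2044), older symbol (355) or the file (26982). The group comparison used limma 3.58.1 (lmFit, eBayes, two-sided, no covariate, 5 residual and 3.50 prior degrees of freedom), R 4.3.3 and the data.table package (1.17.8), with Benjamini-Hochberg adjustment over all 20826 genes. Intervals are 95% confidence intervals. The number of arrays limits the precision, and p-values measure the spread between arrays. The share of spots well above background was 48.7% to 55.2% for AER and 48.9% to 51.1% for ectoderm, with 0 saturated spots. Tables were handled in Python 3.11.15 with pandas 2.3.3 and numpy 2.4.6, and figures were made with matplotlib 3.10.9.

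Probe positions are on mm9, per the file headers, and the exon under a probe was not looked up. Promoters are RefSeq's on GRCm38.p6. The 38 genes and all gene lists were chosen with earlier results of these data known. All 38 genes are named. Array values are given for up to 3 lower genes of each group with the largest difference, for each gene that did not pass, and for a few more (Tnnt1, Tpm2, Mylpf) chosen after their values were seen. Of each further pathway list the 4 genes with the smallest p are named. Alternatives covered background correction, normalization, centring on epithelial markers, the filter, the choice of probe, array weights, slide row, replicate blocks, averaging ectoderm replicates 2 and 4, and leaving out each array.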

Additional observations from a re-analysis of the deposited data

Results flagged for a closer look

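Among the 38 muscle genes and 22 list means, the lowest of the 4 ectoderm arrays stood apart from the others, in gap over range, by more than Dixon's 95% critical value in 5 cases, and each time the low array was replicate 3. Chance alone sets about 1 in 20 such groups apart. The ratio was 0.8925 for Mylpf, the fast regulatory light chain, 0.8405 for Chrng, the fetal receptor subunit, and 0.8571 for the transcription factor Mef2c. It was 0.8897 for the mean of the myogenic regulators and 0.8621 for the mean of the tendon markers. For Mylpf and Chrng the signal on replicate 3 was at background. The AER markers were highest on that ectoderm array, with a mean log2 level of -0.36, and the part of this in the low muscle levels was not tested.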

How the results depend on the processing

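The count of 30 lower genes stayed at 30 to 36 under the alternatives run, apart from within slide row 1, where it was 15 (19 of the 38 probes). Leaving out each array gave 30 to 30 lower genes, 38 to 38 lower probes, a median log2 difference of -3.76 to -2.96 and 2199 to 3275 differing genes of the whole array, against 3266. The genes behind the 30 were not always the same, since Mylpf lost its call without AER replicate 2 or 3. The median of -3.24 was -1.60 in the authors' processed values and with normexp and quantile normalization, -1.68 with normexp and the 75th percentile, -4.82 with centring on epithelial markers and -4.03 within slide row 2. Differing genes numbered 19847 with that centring, 653 within row 1 and 1390 within row 2. Neb turned to -1.23 with that centring, -1.10 by the mean of its probes and -2.55 by the brighter of its RefSeq probes, an alternative chosen after seeing the data. Of 793 values of single genes under alternatives, 14 became called, 17 lost their call (15 of them within row 1) and 3 turned direction and were called. The other 759 kept their side of the threshold. Among these, a gene without a call could turn direction, as Neb did with normexp and the 75th percentile (-0.06). Whether title numbers pair the samples cannot be told from so few arrays. Deviations of same-numbered arrays correlated at -0.03, 0.19 and 0.13, where those of differently numbered arrays correlated at -0.26 to 0.18. With a replicate block by title number 31 genes were lower (2444 differing genes, median -2.96), and with the number in the file names 31 (3293 differing genes). Signals near background limit most AER levels: 16 of the 38 genes were above it on no AER array, and their folds are bounds or were not tested.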
